A study of Homo sapiens with 8 samples.

Results

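The mRNA of 9 enzymes of the pentose phosphate pathway and of other routes to NADPH was described in CAKI1 cells with and without iron-loaded lipocalin-2 (hLcn-2). The 9 genes, PGLS, PGD, RPIA, RPE, TKT, TALDO1, ME1, IDH2 and NNT, were taken by their symbols from the 16782 genes of the deposited table of normalized counts, and each had 1 entry. They were picked for what their enzymes do and not by a measured value, although earlier results of these data were known. CAKI1 is an established human renal carcinoma cell line, and lipocalin-2 is a secreted protein that can carry iron. Cells of both groups were serum starved for 24 h, and then hLcn-2 was given at 5 µg/mL to 4 samples, which were left with it for 24 h, while 4 control samples were left unstimulated. Samples were numbered 1 to 4 in each group. All samples came from 1 cell line, and no label states that they were separate cultures, so p-values measure only the spread between these samples.

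Libraries of the QuantSeq 3′ kit held between 1501563 (control 4) and 13953090 (control 1) reads, each standing for 1 molecule after removal of PCR copies. Values are normalized counts on the scale of CPM (reads of a gene relative to all reads of its library), on which 3 reads were worth 0.211 CPM in the deepest and 1.98 CPM in the shallowest library. Of 10 markers of renal carcinoma epithelium 9 were in the table, with PAX8, a transcription factor of the renal lineage, between 201 and 245 CPM and VIM between 1302 and 2181 CPM, while CA9 was not listed and PAX2 did not exceed 5.29 CPM. Their summed level lay between 2189 and 2916 CPM in control samples and between 2497 and 3079 CPM in hLcn-2-treated samples. Markers of other cell types were near 0, with summed levels of at most 4.76 CPM for leukocytes (2 of 4 markers listed, PTPRC and CD3E not) and 6.59 CPM for fibroblasts (2 of 3 listed), at most 1.48 CPM for hepatocytes (1 of 2 listed) and 0 of 3 endothelial markers listed.

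The pentose phosphate pathway branches off glycolysis at glucose 6-phosphate. Its oxidative branch yields NADPH and ribulose 5-phosphate, and its non-oxidative branch interconverts sugar phosphates to supply ribose for nucleotides or to return carbon to glycolysis. NADPH is also made by malic enzymes, by NADP-dependent isocitrate dehydrogenases and, in mitochondria, by the proton-driven transhydrogenase NNT, and it feeds the reductases that keep glutathione and thioredoxin reduced, which cells rely on against lipid peroxidation. The question behind the comparison was whether mRNA of these enzymes differed after hLcn-2, a treatment studied for its effects on glutathione synthesis, NRF2 and the integrated stress response.

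NRF2 and ATF4, the transcription factors of these responses, bind antioxidant response elements and amino acid response elements. The promoters of the 9 genes (250 bases before to 50 bases after each start, RefSeq, GRCh38.p14, with 2 windows for NNT) were therefore searched on both strands for the core letters TGACNNNGC and TGATGNAA. The first occurred in 3 genes, PGD, RPE and ME1, and in 13.3% of all 35116 promoters. The other occurred in 0 of the 10 windows and in 3.62% of all promoters. The windows of PGD and IDH2 lie inside the annotated genes, so bases before their annotated starts were not searched. That of IDH2 ends at 90100871 on chromosome 15, while the gene, on the minus strand, reaches 90102477. The stretches of 60 bases around the 3 upstream matches are shown on the strand of the gene. They are shown as the only matches to either core before a start in these windows. The match is in capitals, and it lies on the opposite strand in PGD.
PGD, chr1:10398837-10398896, plus strand, 201 bases before the start: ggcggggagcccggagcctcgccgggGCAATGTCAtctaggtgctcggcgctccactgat
RPE, chr2:210002461-210002520, plus strand, 151 bases before the start: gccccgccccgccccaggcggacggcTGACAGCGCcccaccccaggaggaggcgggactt
ME1, chr6:83431155-83431214, minus strand, 137 bases before the start: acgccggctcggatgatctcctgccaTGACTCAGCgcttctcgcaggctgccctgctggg
ME1 held a further match, GCACCGTCA, from base 12 after its start. The letters are a description of these windows and not evidence of binding.

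The enzymes differed widely in level, from 643 CPM for TKT to 19.7 CPM for PGLS as means over 8 samples. Because 3′ libraries count transcript ends, these levels were not divided by length. TKT, transketolase, was higher than ME1, the cytosolic malic enzyme (mean 429 CPM), in 8 of 8 samples, and ME1 was higher than IDH2 (142 CPM) in 8 of 8. IDH2, the mitochondrial isocitrate dehydrogenase, and TALDO1, transaldolase (127 CPM), could not be ranked, with IDH2 higher in 4 of 8 samples. TALDO1 lay above NNT (82.0 CPM) in 6 of 8 samples, and NNT lay above PGD (76.7 CPM) in only 2 of 8, although its mean was higher. PGD was higher than RPE (29.6 CPM) in 8 of 8 samples, RPE higher than RPIA (27.4 CPM) in 6 of 8, and RPIA higher than PGLS in 7 of 8. TKT and ME1 together made up between 61.1% (control 1) and 73.3% (control 3) of the summed level of the 9 genes, which ranged from 1267 CPM in control 2 to 1852 CPM in control 3.

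**Figure D1:**
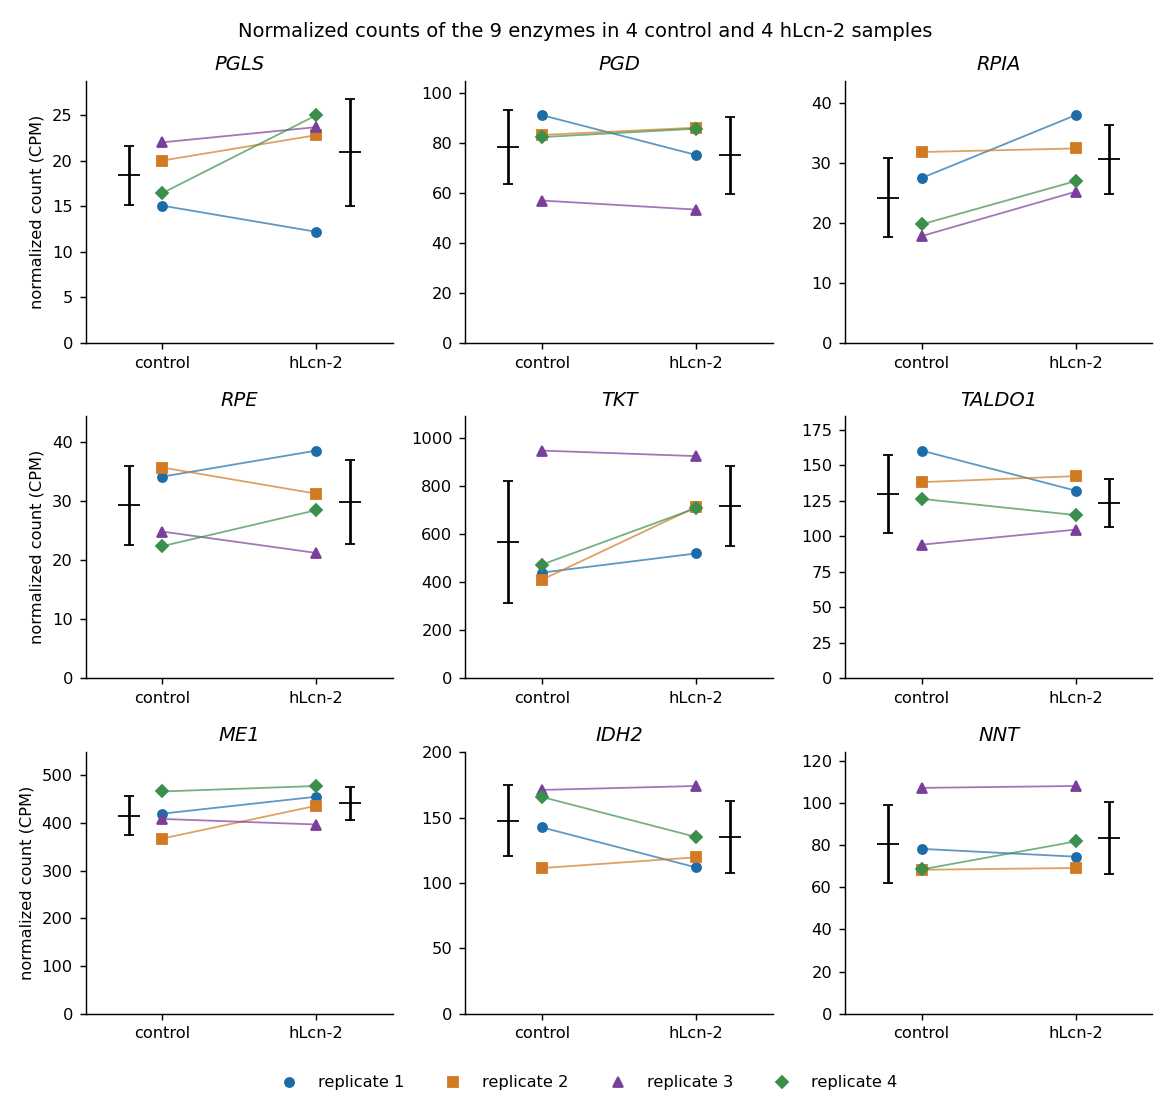
Normalized counts (CPM, linear axes from 0) of the 9 enzymes in 4 control and 4 hLcn-2-treated samples, with lines joining samples of the same number and black bars giving the mean ± SD of each group. Groups overlap for 9 of 9 genes, and replicate 3 is the highest pair for TKT, IDH2 and NNT and the lowest for PGD and TALDO1.

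Between control and hLcn-2-treated cells, no enzyme of the 9 differed beyond the spread between samples in the test that ignores the sample numbers. Log2 fold changes, on the scale of log2(CPM + 1), ranged from -0.13 for IDH2 to 0.39 for TKT, with 6 genes above and 3 below 0 and a median of 0.053. Over all 15593 genes tested the median was 0.0008, with the middle 50% of genes between -0.14 and 0.14, and 50.2% of genes were above 0. All 9 enzymes passed the filter of at least 1 CPM in at least 2 samples. With limma and Benjamini-Hochberg adjustment 0 of 9 enzymes and 0 of 15593 genes (0%) had an adjusted p-value under 0.05, and 0 enzymes and 355 genes had an unadjusted p-value under 0.05. With edgeR on the recovered reads the count was also 0, and 324 genes had an unadjusted p-value under 0.05. The groups did not overlap for 1.88% of all genes, and they overlapped for 9 of 9 enzymes. Values are relative to all reads of a library, so a change in the total RNA of a cell would not show. Because each library pools many cells, a change in every cell and a change in a share of them cannot be told apart.

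A control and a treated sample of the same number tended to stray from their group means in the same genes (r between 0.31 and 0.61 across genes), so the comparison was repeated with the replicate number as a block. With the replicate block, limma called 0 of 9 enzymes and 0.282% of all genes, while 2 enzymes, RPIA and TKT, and 12.2% of all genes had an unadjusted p-value under 0.05. The edgeR quasi-likelihood test with the replicate block called 1 enzyme, TKT, and 1.49% of all genes. Between same-numbered samples, 1 enzyme (RPIA) was higher after hLcn-2 in 4 of 4 pairs, as 9.93% of all genes were, and 0 enzymes were lower in 4 of 4 pairs, as 10.9% of all genes were. The median log2 difference of the 9 enzymes was -0.069, 0.049, 0.013 and 0.25 in pairs 1 to 4, and that of all genes was -0.016, 0.0076, -0.045 and 0.038. Accordingly 4, 8, 5 and 7 of the 9 enzymes were higher after hLcn-2 in pairs 1 to 4.

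**Figure D2:**
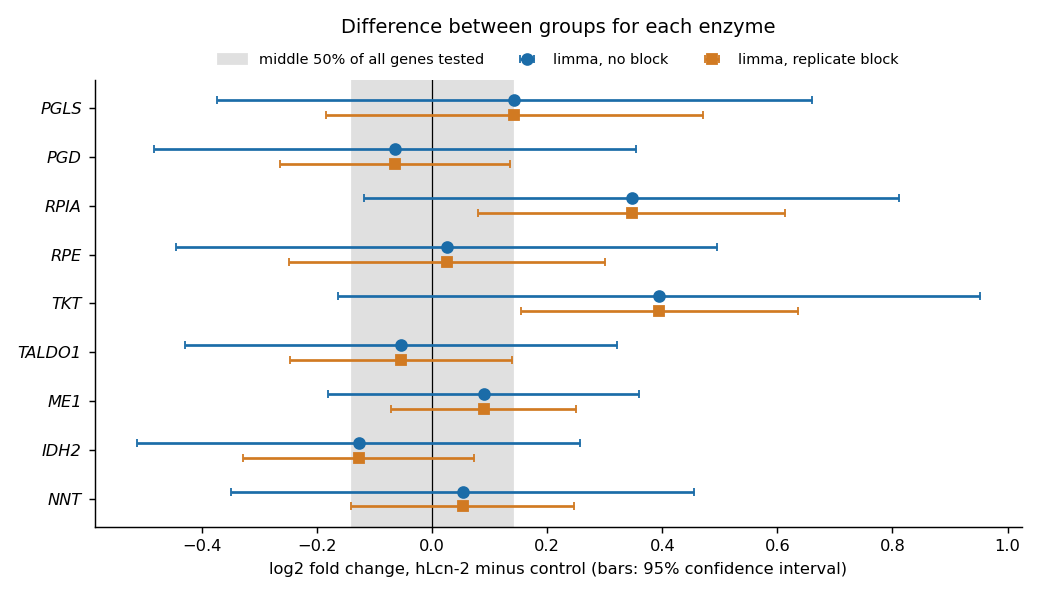
Log2 fold change (hLcn-2 minus control) of each enzyme with its 95% confidence interval, from limma without (circles) and with (squares) the replicate block, over the range that holds the middle 50% of all genes tested (grey). Without the block every interval includes 0, and with the block those of RPIA and TKT do not.

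Of the oxidative branch, 2 enzymes were followed. PGLS hydrolyses 6-phosphogluconolactone, and PGD, 6-phosphogluconate dehydrogenase, makes NADPH and ribulose 5-phosphate. PGLS (chromosome 19, 17511636 to 17521288, plus strand, GRCh38) was at 15.1, 20.03, 22.03 and 16.5 CPM in control samples 1 to 4 and at 12.2, 22.8, 23.7 and 25.01 CPM in hLcn-2-treated samples 1 to 4. The lowest value of all, in hLcn-2-treated sample 1, and the highest, in hLcn-2-treated sample 4, both belonged to the treated group, so the groups overlapped. Means were 18.4 ± 3.20 and 20.9 ± 5.89 CPM (SD, n = 4), and the log2 fold change was 0.14 (SE 0.24, 95% confidence interval -0.37 to 0.66, adjusted p = 0.9999 by limma). Each value rested on 25 to 267 reads. With the replicate block the interval narrowed to -0.18 to 0.47.

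PGD (chromosome 1, 10398592 to 10420511, plus strand) was at 91.1, 83.2, 56.9 and 82.3 CPM in control samples and at 75.2, 86.1, 53.3 and 85.7 CPM after hLcn-2. Both samples numbered 3 lay below the other 6, and the difference between the groups was small beside that gap. The log2 fold change was -0.065 (SE 0.19, 95% confidence interval -0.48 to 0.35, adjusted p = 0.9999 by limma), and with the replicate block its interval was -0.26 to 0.13. An exact two-sided permutation test, whose smallest possible p is 0.0286, gave p = 0.629 for PGD and likewise for PGLS. The PGD stretch printed above lies inside the annotated gene, whose first base is upstream of the RefSeq start.

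In the non-oxidative branch, RPIA and RPE compete for the same substrate. RPIA turns ribulose 5-phosphate into ribose 5-phosphate, the precursor of nucleotides, and RPE turns it into xylulose 5-phosphate. RPIA (chromosome 2, 88691673 to 88750929, plus strand) was at 27.5, 31.8, 17.8 and 19.8 CPM in control samples and at 37.9, 32.4, 25.2 and 27.0 CPM after hLcn-2. Every treated sample lay above the control of its number, with log2 differences of 0.45, 0.026, 0.48 and 0.43, although the treated samples 3 and 4 were below controls 1 and 2 and the groups overlapped. Means were 24.2 ± 6.56 and 30.6 ± 5.77 CPM (SD, n = 4), a log2 fold change of 0.35 (SE 0.21, 95% confidence interval -0.12 to 0.81). With the replicate block the SE was 0.12 and the interval 0.080 to 0.61, but the adjusted p-value was 0.280 (limma), 0.225 with edgeR and 0.437 with DESeq2. The exact permutation test without pairing gave p = 0.20.

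RPE (chromosome 2, 210002565 to 210022260, plus strand) was at 34.2, 35.7, 24.9 and 22.4 CPM in control samples and at 38.6, 31.3, 21.2 and 28.5 CPM after hLcn-2. It was higher after hLcn-2 in pairs 1 and 4 and lower in pairs 2 and 3. Its log2 fold change was 0.025 (SE 0.22, 95% confidence interval -0.45 to 0.50), with an interval of -0.25 to 0.30 under the replicate block. The last 500 bases of RPE were cut into 18 windows of 75 bases, and 18 of 18 matched 1 genomic site, so that reads of these windows can be told from those of its intronless relative RPEL1. RPEL1 itself had means of 1.74 and 1.63 CPM, at or under the worth of 3 reads in 2 of the libraries.

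TKT moves units of 2 carbons between sugar phosphates and links the pathway to glycolysis. Its gene (chromosome 3, 53224712 to 53256052, minus strand) has 14 exons. Control samples 1 to 4 held 441, 411, 949 and 474 CPM, and hLcn-2-treated samples 1 to 4 held 520.4, 714, 926 and 709 CPM. Control 3 lay at about the level of its treated partner, while the other 3 treated samples exceeded every one of the other 3 controls. Means were 569 ± 255 and 717 ± 166 CPM (SD, n = 4), and the log2 fold change was 0.39 (SE 0.26, 95% confidence interval -0.16 to 0.95, 1.31-fold, exact permutation p = 0.314). Differences within pairs were 0.24, 0.79, -0.035 and 0.58 on the log2 scale.

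TKT was the enzyme whose call depended on the test. With the replicate block limma gave an interval of 0.15 to 0.64 and an adjusted p-value of 0.166, edgeR a log2 fold change of 0.40 with an adjusted p-value of 0.0486, and DESeq2 an adjusted p-value of 0.0498. In the edgeR test with the block, the adjusted p-value of TKT was 0.0677 without both samples numbered 1, 0.468 without number 2, 0.0304 without number 3 and 0.138 without number 4, with log2 fold changes of 0.45, 0.26, 0.54 and 0.35. Without pairing, leaving out control 3 alone raised the log2 fold change to 0.67 (adjusted p = 0.893 by limma), and leaving out hLcn-2-treated sample 3, control 2 or another single sample gave values between 0.26 and 0.54. Among the 9005 genes with a mean of at least 10 CPM, those whose log2 values were most like TKT over the 8 samples were TMEM134 (Pearson r = 0.98, Spearman rho = 0.95), RMDN3 (r = 0.98, rho = 0.95) and NELFA (r = 0.97, rho = 0.88). A further measure of how common such a pattern was is that 110 genes had r over 0.9, and these correlations share the 8 libraries and their depth.

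TALDO1, which moves units of 3 carbons and works in series with TKT, did not share its pattern. TALDO1 (chromosome 11, 747415 to 765012, plus strand) was at 160.4, 138, 94.1 and 126 CPM in control samples and at 132, 142, 105 and 115 CPM after hLcn-2. Its 2 lowest values were in the samples numbered 3, where TKT had its 2 highest. Means were 129.8 ± 27.6 and 124 ± 16.9 CPM (SD, n = 4), with a log2 fold change of -0.054 (SE 0.17, 95% confidence interval -0.43 to 0.32) and an interval of -0.25 to 0.14 under the replicate block. The difference between TKT and TALDO1 in their response was not tested.

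Outside the pentose phosphate pathway, ME1 was the least variable of the 9 enzymes relative to its level. ME1 (chromosome 6, 83210402 to 83431051, minus strand) oxidises malate to pyruvate in the cytosol and makes NADPH. It was at 419.7, 368, 409 and 466 CPM in control samples and at 455, 436, 397 and 478 CPM after hLcn-2, with treated samples higher in 3 of 4 pairs. Means were 416 ± 40.6 and 442 ± 34.2 CPM (SD, n = 4), and the log2 fold change was 0.089 (SE 0.12, 95% confidence interval -0.18 to 0.36). Under the replicate block the interval was -0.071 to 0.25, so that log2 fold changes above 0.25 lay outside it.

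IDH2 and NNT make NADPH in mitochondria, IDH2 from isocitrate and NNT from NADH. IDH2 (chromosome 15, 90083045 to 90102477, minus strand) was at 143, 111.5, 171 and 166 CPM in control samples and at 112, 119.7, 174 and 135 CPM after hLcn-2. The treated samples were lower in pairs 1 and 4 and slightly higher in pairs 2 and 3. Its log2 fold change was -0.13 (SE 0.18, 95% confidence interval -0.51 to 0.26), with an interval of -0.33 to 0.073 under the replicate block.

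NNT (chromosome 5, 43602692 to 43707405, plus strand) was at 78.3, 68.3, 107 and 68.5 CPM in control samples and at 74.6, 69.2, 108 and 81.8 CPM after hLcn-2. Within pairs it differed by -0.069, 0.017, 0.013 and 0.25 on the log2 scale, and both samples numbered 3 stood above the other 6. The log2 fold change was 0.053 (SE 0.18, 95% confidence interval -0.35 to 0.46), with an interval of -0.14 to 0.25 under the replicate block. Of 18 windows of 75 bases in the last 500 bases of NNT, 3 matched several genomic sites, up to 277. In IDH2 3 of 18 matched several sites, up to 7, and how such reads were counted is not stated. Exons of PGLS, RPE and NNT overlap a gene on the opposite strand (PGLS-DT, KANSL1L and NNT-AS1), and whether reads were counted by strand is not stated.

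The replicate number accounted for more of the variation of these enzymes than the treatment did. Of the sum of squares of log2 values, the number took between 64.4% (RPIA) and 93.3% (NNT), and it exceeded the share of the group for 9 of 9 enzymes. On average the number took 78.3%, the group 8.53% and the rest 13.2% for the 9 enzymes, against 62.3%, 11.9% and 25.8% for all genes tested. The number has 3 of the 7 degrees of freedom and the group 1, so that unequal shares arise even without an effect. The group took most in RPIA (27.6%), TKT (19.6%) and ME1 (14.1%), and at most 6.51% in the other 6 enzymes.

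**Figure D3:**
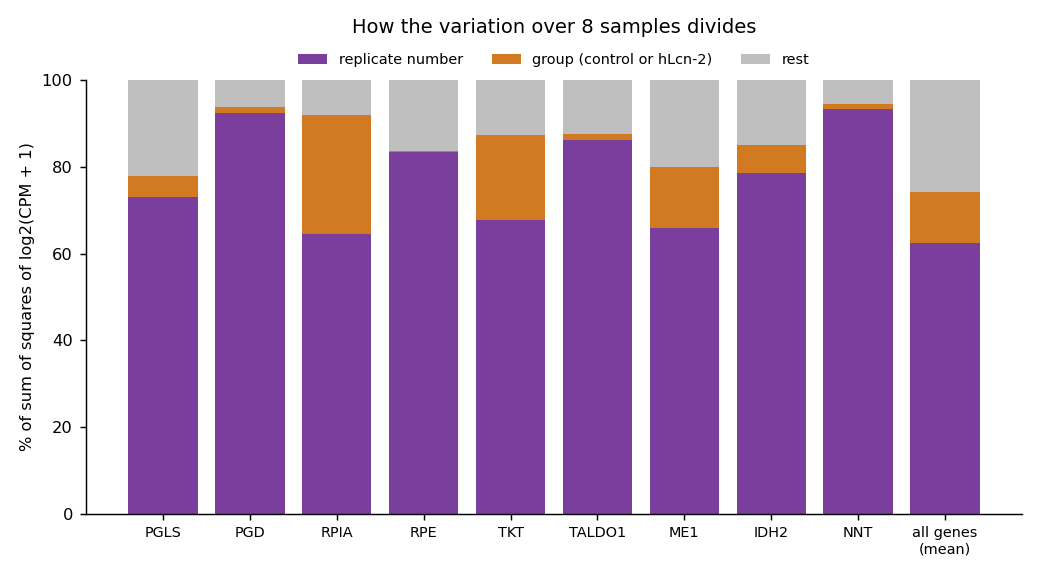
Share of the sum of squares of log2(CPM + 1) over 8 samples (percent) that belongs to the replicate number, to the group and to the rest, for each enzyme and as the mean over all genes tested. The replicate number takes between 64.4% and 93.3% for the enzymes and 62.3% on average for all genes.

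Samples numbered 3 stood apart most often. Both lay outside the range of the other 6 samples for 5 enzymes, below it for PGD and TALDO1 and above it for TKT, IDH2 and NNT. Over all genes tested this held for 29.3%, against 9.23%, 14.1% and 14.5% for numbers 1, 2 and 4, where it held for PGLS, for no enzyme and for ME1. On the log2 scale the mean of number 3 differed from that of the other numbers by 0.82 for TKT, 0.55 for NNT and 0.41 for IDH2, and by -0.60 for PGD and -0.44 for TALDO1. In the same samples the mitochondrial ribosomal RNA gene RNR2 took 6.22% (control) and 7.10% (hLcn-2) of all values, against 3.31% to 4.37% in the other 6, and its part in these differences was not tested. Once both were left out, the 9 enzymes had a median log2 fold change of 0.11, TKT was at 0.54 and RPIA at 0.30, and limma called 0 enzymes with or without the block, with 1 enzyme at an unadjusted p-value under 0.05 in each, where 1606 and 582 of all genes were. In edgeR with the block 1 enzyme was called, among 105 genes.

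**Figure D4:**
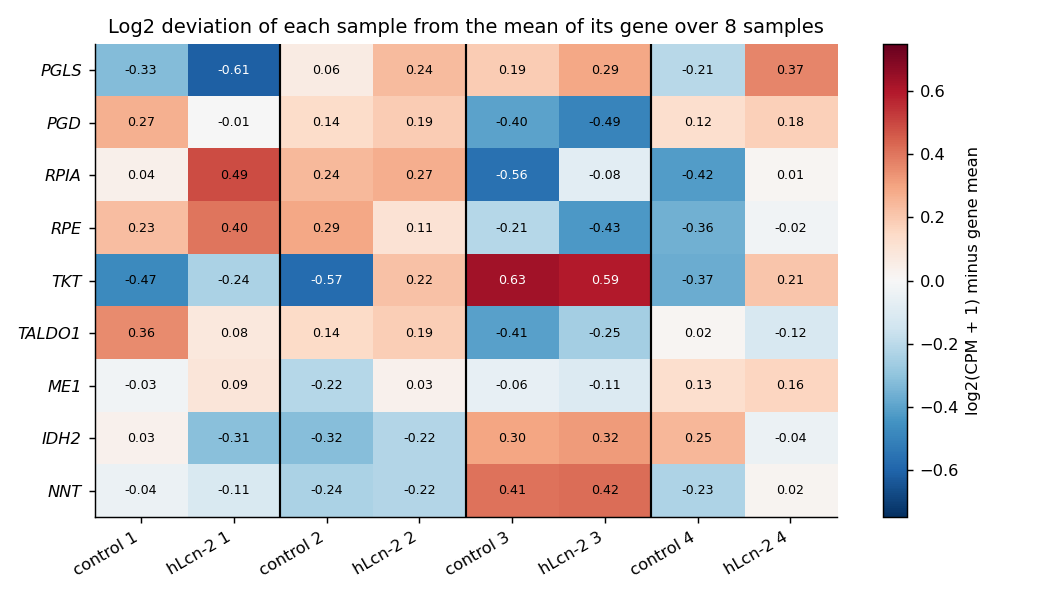
Deviation of each sample from the mean of its gene over 8 samples, as log2(CPM + 1), with red above and blue below the mean and samples of the same number side by side. In the pair numbered 3, TKT (0.63 and 0.59) and NNT (0.41 and 0.42) are above their means and PGD (-0.40 and -0.49) is below.

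Relatives of the 9 enzymes were counted in 4 lists. Of 11 tested genes of other pentose and ribose phosphate enzymes, 5 were above and 6 below 0 (median log2 fold change -0.18), and 0 passed the threshold in limma, in limma with the block or in edgeR with the block, while 4 had an unadjusted p-value under 0.05 in limma with the block. In this list H6PD, the enzyme of the endoplasmic reticulum that starts the pathway there, had a log2 fold change of 0.35 (33.1 ± 14.9 and 41.9 ± 15.3 CPM, higher in 2 of 4 pairs, adjusted p = 0.385 by limma with the block), PRPSAP2, a partner of the ribose phosphate kinases, 0.25 and SHPK, sedoheptulokinase, -0.44. SHPK rested on 3 to 63 reads, and its value was -0.17 without hLcn-2-treated sample 3 and between -0.57 and -0.22 with other pseudocounts. The smallest unadjusted p-value of this list with the block was that of PRPS1, a ribose phosphate kinase named after its values were seen, at 60.8 ± 19.4 and 48.2 ± 18.6 CPM (lower in 4 of 4 pairs, log2 fold change -0.37, adjusted p = 0.204 by limma and 0.198 by edgeR with the block). Of 10 tested genes in a list of other NADPH producers, isozymes of the enzymes and NAD kinases, 5 were above and 5 below 0 (median 0.022). In limma with the block 1 of them passed, MTHFD2, a mitochondrial folate dehydrogenase, and in edgeR with the block 2 did, MTHFD2 and IDH1, both higher.

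Of 14 tested reductases that consume NADPH, 11 were above and 3 below 0 (median 0.084), with 0 called in limma with the block, where 5 had an unadjusted p-value under 0.05, and 1 in edgeR with the block. CBR1, a carbonyl reductase, was lower in 4 of 4 pairs without overlap of the groups (212 ± 11.4 and 170.2 ± 10.2 CPM, adjusted p = 0.0984 by limma, 0.0560 by edgeR and 0.0448 by DESeq2, each with the block), so that its call depended on the test, and ALDH18A1, of proline synthesis, had a log2 fold change of 0.23. The gene called by edgeR was AKR1B1, aldose reductase, which is named after its values were seen and was lower in 4 of 4 pairs (2210 ± 553 and 1719 ± 478 CPM, adjusted p = 0.0102). Of 17 tested NRF2 targets, 14 were above and 3 below 0 (median 0.14). Those below 0, named after their values were seen, were NQO1 (log2 fold change -0.12), AKR1B10 (-0.16) and EPHX1 (-0.23). FTH1, above 0, rested on only 1 to 26 reads. GSR and TXNRD1, both above 0, were counted here and among the reductases. GCLM, the modifier subunit of glutathione synthesis (log2 fold change 0.41), and SLC7A11, the cystine carrier (0.72), passed in limma with the block, with adjusted p-values of 0.0367 and 0.0150. Without both samples numbered 2, or both numbered 3, limma with the block called 0 genes of the 4 lists, with 10 and 14 at an unadjusted p-value under 0.05, and edgeR with the block called 2 and 3. Without number 1, GCLM was not called either (adjusted p = 0.106 by limma and 0.0569 by edgeR with the block), while SLC7A11 and MTHFD2 were (0.0288 each by limma with the block). Some of these targets were chosen by the study from these samples, so they are not independent evidence. Besides CBR1 among the reductases, the groups did not overlap for SLC7A11 among the NRF2 targets and NADK2 among the other NADPH producers. They did so for 0 genes of the first list and 1.88% of all genes. NADK2, named after its values were seen, was at 34.3 ± 1.66 and 40.3 ± 2.50 CPM (higher in 4 of 4 pairs, adjusted p = 0.392 by limma with the block). Of the genes in the lists, TKTL1, TKTL2, ALDH1L1, MTRR and SRXN1 had no entry under these symbols.

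Where an enzyme has a partner in another compartment, the partner was set beside it. IDH1, the cytosolic isocitrate dehydrogenase, was at 192.5, 187, 140.5 and 169 CPM in control samples and at 239, 239.5, 178 and 251 CPM after hLcn-2. In 4 of 4 pairs it was higher, and the groups overlapped. The log2 fold change of IDH1 was 0.39 (SE 0.15), whereas IDH2 had -0.13. With the block the adjusted p-value of IDH1 was 0.0564 by limma, 0.0171 by edgeR and 0.00796 by DESeq2, so its call depended on the test. By edgeR it was 0.0632, 0.134 and 0.0695 without number 1, 2 or 3, and under 0.05 without number 4. ME2, the mitochondrial malic enzyme that uses NAD, had means of 39.7 ± 8.51 and 51.4 ± 5.52 CPM and was higher in 4 of 4 pairs (log2 fold change 0.38, adjusted p = 0.154 by limma and 0.0963 by edgeR with the block), whereas ME1 had 0.089. ME3, the mitochondrial malic enzyme that uses NADP, was at 4.86 and 4.85 CPM. MTHFD2 was at 189 ± 30.1 and 306 ± 79.6 CPM (log2 fold change 0.67, adjusted p = 0.0174 by limma with the block), and ALDH1L2, which makes NADPH from folate in mitochondria, at 3.91 and 3.53 CPM.

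The ratio of 2 enzymes within a sample depends little on the scaling of the library. The 4 ratios given here were chosen after the values were seen and are a description without a test. RPIA over RPE, the enzymes of a shared substrate, was -0.27 ± 0.14 on the log2 scale in control samples and 0.047 ± 0.14 after hLcn-2 (SD, n = 4), higher in 4 of 4 pairs by 0.28, 0.21, 0.70 and 0.096 and without overlap of the groups. RPIA and RPE rested on only 51 and 43 reads in hLcn-2-treated sample 3 and on 30 and 34 in control 4. How much of these differences is counting error was not tested. IDH1 over IDH2 was 0.23 ± 0.45 and 0.75 ± 0.49 on the same scale, higher in 4 of 4 pairs but with overlapping groups. TKT over TALDO1 (2.06 ± 0.86 and 2.51 ± 0.49) and ME2 over ME1 (-3.37 ± 0.42 and -3.08 ± 0.17) were higher in 3 of 4 pairs each.

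**Figure D5:**
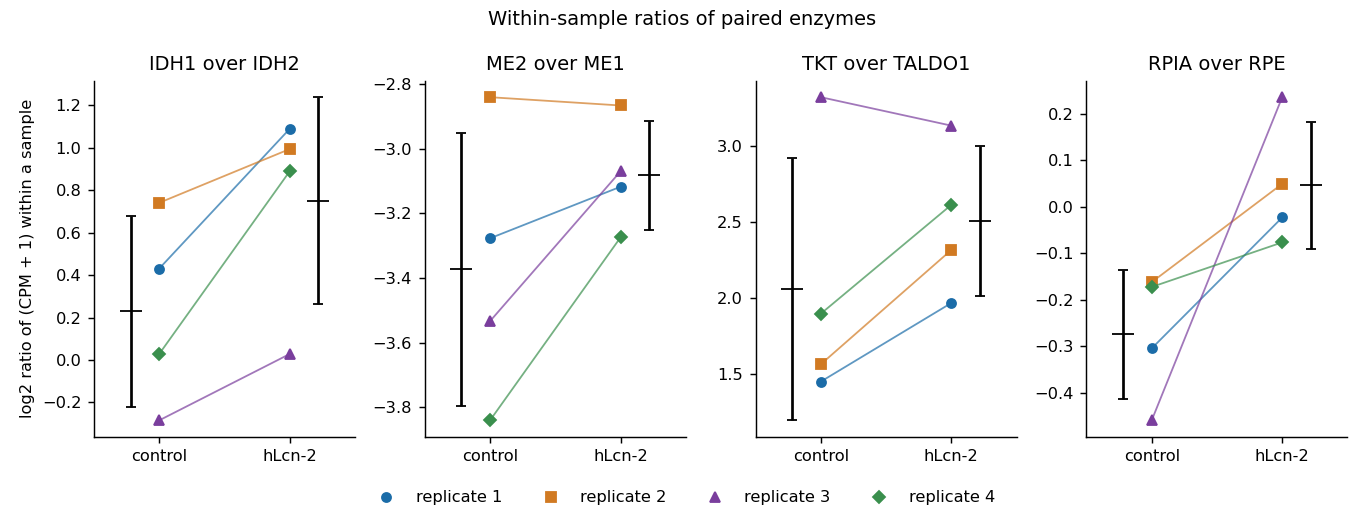
Log2 ratio of (CPM + 1) of 2 enzymes within each sample, for 4 pairs of enzymes in 4 control and 4 hLcn-2-treated samples, with lines joining samples of the same number, black bars giving mean ± SD and axes that do not start at 0. The groups are apart for RPIA over RPE (-0.27 and 0.047 on average) and overlap for the other 3 ratios. All 4 ratios were chosen after the values were seen, and how often ratios of other genes are apart was not counted.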

How the data were processed

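RNA of 4 control and 4 hLcn-2-treated CAKI1 samples was sequenced as single-end QuantSeq 3′ libraries with molecular identifiers (NextSeq 500, 75 cycles). The authors used STAR with the GRCh38 genome, kept 1 read per identifier and counted reads with HTSeq. The deposited values are a signal, normalized counts on about the scale of CPM, and all 134256 (100%) came out as whole reads within 0.01 of a read. Versions and the strand setting are not given in the sources used here. One value with a decimal comma was read as a decimal point.

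The enzymes and the 4 other lists were chosen with earlier results of these data known. Limma 3.58.1 (R 4.3.3) was run with an intensity trend on log2(CPM + 1) on the genes that reached 1 CPM in 2 or more samples, two-sided, with Benjamini-Hochberg adjustment over 15593 genes. Alternatives were the replicate number as a block, edgeR 4.0.16 (quasi-likelihood) and DESeq2 1.42.0 on the recovered reads, other pseudocounts (0.1 and 5), filters (none, or a mean of at least 10 CPM) and scalings, no trend, and leaving out samples. The numbers, taken from the labels, pair the samples because the deviations of every same-numbered pair correlated by more than 0.1 (0.31 to 0.61, mean 0.50). Single genes were also tested by exact permutation over 70 regroupings. Depth was 1501563 to 13953090 reads per library, and the worth of 3 reads covers counting error only.

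Besides the enzymes, named genes are their isozymes, MTHFD2 and ALDH1L2, list genes past 0.05 in limma with or without the block and otherwise the 2 genes of a list with the smallest unadjusted p-value in limma without the block. For an enzyme called with the block the 3 most correlated genes are named. Gene positions are from GENCODE 44. The model was tested on simulated data.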

Additional observations from a re-analysis of the deposited data

Results flagged for a closer look

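The 22 genes named by the rule above, and not those named after their values were seen, were examined in 2 groups. In 3 of 44 groups of 4 samples, 1 sample lay further from the rest than Dixon's 95% critical value for 4 samples allows. Chance gives about 1 in 20 groups, or 2.2 of 44. PGLS in hLcn-2-treated sample 1 was 12.2 CPM (137 reads), below the other 3 treated samples. TKT in control 3 was 949 CPM (5385 reads), above the other 3 controls, and its treated partner had the highest TKT value of its group. IDH1 in hLcn-2-treated sample 3 was 178 CPM (360 reads), below the other 3 treated samples, as control 3 was the lowest control.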

How the results depend on the processing

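The count of genes called was 0 without the block in every fit to all samples (284 genes at an unadjusted p-value under 0.05 in DESeq2), and 44 with the replicate block in limma, 233 with it in edgeR and 173 with it in DESeq2, with 0 to 192 when samples were left out. Of the enzymes, 1 (TKT) was called with the block in edgeR and 1 in DESeq2, and 0 to 1 when samples were left out. Of the other lists, 3 genes were called with the replicate block in limma, 5 in edgeR and 6 in DESeq2, and 0 to 7 when samples were left out. The block changed no other call of an enzyme.

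The median log2 fold change of the enzymes lay between 0.038 and 0.065 in all fits to 8 samples and between -0.016 and 0.11 when samples were left out. No enzyme changed direction in a fit to 8 samples. When samples were left out, log2 fold changes ranged from -0.0010 to 0.37 for PGLS, -0.21 to 0.088 for PGD, -0.10 to 0.17 for RPE, -0.20 to 0.055 for TALDO1 and -0.077 to 0.20 for NNT, each reversing at 1 end, as did ME3 (-0.16 to 0.18), RPEL1 (-0.82 to 0.12) and ALDH1L2 (-0.52 to 0.14). ME3, at few reads, also reversed with edgeR (0.088), edgeR with the block (0.068), DESeq2 (0.094) and DESeq2 with the block (0.0091), and ALDH1L2 with edgeR and the block (0.0014). The cause was not tested. RPIA, TKT, ME1 and IDH2 kept their direction in all 32 alternatives. Leaving out both samples of a number was tried without the block, and with edgeR and the block, after seeing the data. The shallowest library, control 4, limits PGLS (25 reads), RPIA (30) and RPE (34) most.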
